A study of Danio rerio with 18 samples.

Results

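The genes described here are pmaip1 and casp3b, taken as the 2 RefSeq features whose current zebrafish symbols are these, out of 37105 features on the array (2659 of them with a current symbol). The feature NM_001045474 stands for pmaip1 and summarises 11 probes, and NM_001048066 stands for casp3b and summarises 10 probes. No other feature with a RefSeq identifier carries either symbol, and none is named for casp3a, the close relative of casp3b. Whether the casp3b feature also reads casp3a was not tested. Both genes were chosen by measured values, the intensities with MES gold particles and in controls at 48 hours post fertilization (hpf). An earlier analysis of these arrays had called pmaip1 lower in that comparison and had given casp3b beside it as a gene of the same apoptosis list. The values of that comparison, and of every other that holds its MES or control arrays, are therefore given for both genes as a description with no test. The comparisons at 24 hpf and that between the ages with TMAT particles were tested.

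Each sample was RNA of 40 pooled zebrafish embryos that were freed from the chorion at 4 hpf and exposed from 6 hpf until collection. There were 6 groups of 3 arrays: 50 µg/mL of MES gold particles, 10 µg/mL of TMAT gold particles and vehicle control, each collected at 48 hpf and at 24 hpf. Both particles have a core of 1.5 nm and differ in the charged ligand on the surface, anionic mercaptoethanesulfonate for MES and cationic trimethylammoniumethanethiol for TMAT. The labels name no strain or genotype for any group, and they give 37 °C as the temperature of the exposure for all groups. Nothing says that the pools came from separate clutches, so the p-values measure the spread between these pools, which may be partly technical.

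Apoptosis through mitochondria is governed by the Bcl-2 family. BH3-only members of that family, among them the product of pmaip1 (also called Noxa), bind and neutralise the pro-survival members, and pore-forming members then release cytochrome c. In mammals pmaip1 is a transcriptional target of p53, it acts mainly on Mcl-1, and its mRNA level is a main point of its control. The product of casp3b is an executioner caspase, a protease made as an inactive precursor that initiator caspases cleave and that then cuts cell proteins. Its activity is set by that cleavage, which an mRNA level does not show. Apoptosis is also a normal part of zebrafish development in these days, in the nervous system and the lens among other tissues. In RNA of whole embryos a smaller number of cells that express a gene and a lower amount of RNA per cell cannot be told apart.

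At 48 hpf pmaip1 was lower with either particle than in controls, without overlap of the arrays. Its RMA intensity was 502, 339 and 677 in MES arrays 1, 2 and 3 (50 µg/mL). It was 417, 507 and 596 in TMAT arrays 1, 2 and 3 (10 µg/mL). It was 1380, 2542 and 780 in control arrays 1, 2 and 3. All 6 exposed arrays lay below the lowest control array, and the control arrays themselves spread over a 3.26-fold range, against 1.99-fold in MES and 1.43-fold in TMAT arrays. The mean log2 intensity was 8.93 ± 0.50 with MES, 8.97 ± 0.26 with TMAT particles and 10.45 ± 0.85 in controls (SD, n = 3 each). On the log2 scale the difference from controls was −1.52 ± 0.43 for MES and −1.48 ± 0.43 for TMAT particles (SE from the fit over all 18 arrays), which share the same 3 control arrays and came from different doses. As ratios these are 0.348 and 0.359 of the control level. The median difference over all features was −0.14 for MES and −0.15 for TMAT particles. Values without overlap on the lower side were found in 20.2% of all features for MES and in 15.9% for TMAT particles, and 0.771% and 0.464% of features had a lower difference than pmaip1. On the higher side the shares without overlap were 10.3% and 7.76%. The limma fit called 5.76% of all features for MES particles, by an adjusted p under 0.05. Since the first of these comparisons chose the gene and the other uses the same control arrays, nothing is read from these counts.

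At 24 hpf, in arrays that had no part in the choice, pmaip1 was below the control mean in all 6 exposed arrays. Both particles share the same 3 control arrays, and the share of all features with this pattern was not counted. Nothing is read from it. The groups overlapped for pmaip1 and neither difference passed the test. The intensity was 843, 1051 and 1000 in MES arrays, 460, 1240 and 660 in TMAT arrays, and 1834, 1749 and 886 in control arrays 1, 2 and 3. Control array 3 lay among the exposed arrays, and TMAT array 2 lay above all MES arrays. With TMAT particles the log2 difference was −0.97 ± 0.43 SE (9.50 ± 0.72 against 10.47 ± 0.59, SD, n = 3 each), with an adjusted p of 0.654 over all features (unadjusted p = 0.0382, limma). In that comparison 0.380% of features had a lower difference, a rank that takes no account of spread. The SD of pmaip1 in these TMAT arrays exceeded that of 90.7% of features. With MES particles the log2 difference was −0.56 ± 0.43 SE (9.91 ± 0.17 in MES arrays). Its adjusted p was 0.787 (unadjusted p = 0.211, limma), and 6.70% of features were lower. The limma fit called 0.0% of all features in either of these comparisons, with 2242 (TMAT) and 1459 (MES) features at an unadjusted p under 0.05. Arrays without overlap on the lower side were found in 4.54% of features for TMAT and 5.83% for MES particles, and on the higher side in 1.99% and 1.66%. Neither member was among them. The ordinary statistic without moderation also called 0 features in each. The 95% interval of the pmaip1 difference ran from −1.88 to −0.06 for TMAT and from −1.47 to 0.35 for MES particles.

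**Figure D1:**
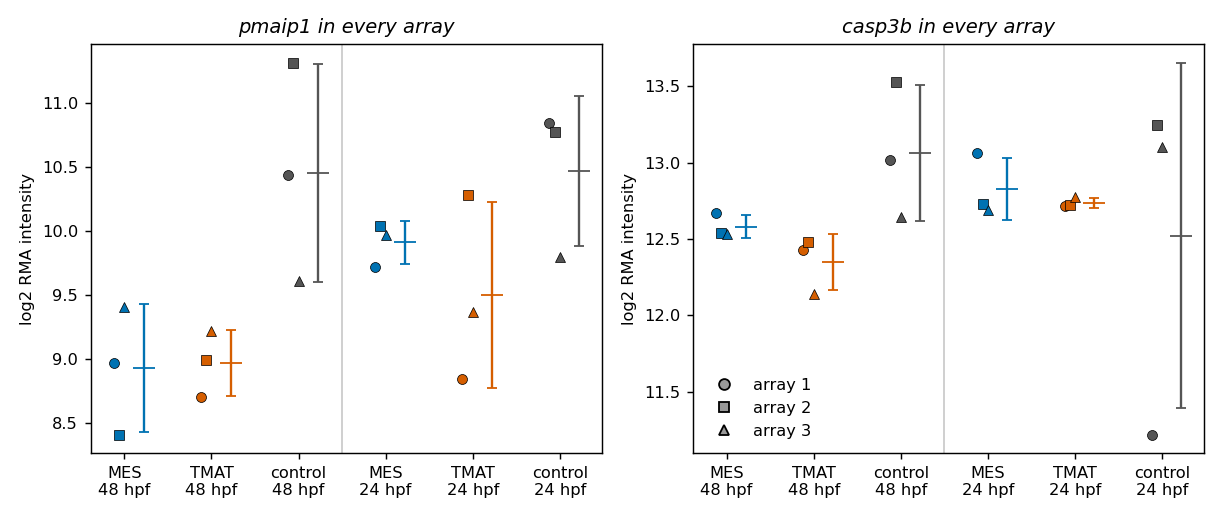
Log2 RMA intensity of pmaip1 and casp3b in each of the 18 arrays, by group (48 hpf left of the line, 24 hpf right), with the shape of a point giving the array number and the bar beside it the group mean ± SD (n = 3). For pmaip1 the 6 exposed arrays at 48 hpf lie below every control array of that age. For casp3b control array 1 at 24 hpf lies far below all others.

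The mean of pmaip1 in controls was 10.45 ± 0.85 at 48 hpf and 10.47 ± 0.59 at 24 hpf (log2 intensity, SD, n = 3 each). The log2 difference was −0.02 ± 0.43 SE. It ran from −0.45 to 0.40 with single arrays left out, so no stable level is read from it. With MES particles the level at 48 hpf was below that at 24 hpf without overlap (8.93 ± 0.50 against 9.91 ± 0.17, log2 difference −0.98 ± 0.43 SE), as were 29.1% of all features, with 26.4% above. These comparisons share arrays with the one that chose the gene and are given without a test. With TMAT particles, in arrays that took no part in the choice, the level was 8.97 ± 0.26 at 48 hpf and 9.50 ± 0.72 at 24 hpf. The groups overlapped and the log2 difference of −0.53 ± 0.43 SE did not pass (adjusted p = 0.5, limma). It was −0.14 without TMAT array 2 and −0.85 without TMAT array 1 at 24 hpf. The difference from controls at 48 hpf minus that at 24 hpf was −0.96 ± 0.61 SE for MES and −0.51 ± 0.61 SE for TMAT particles, again without a test. Without control array 2 at 48 hpf these were −0.53 and −0.08, and without control array 3 of that age −1.38 and −0.93.

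Ordered by mean log2 intensity from high to low, pmaip1 was at 10.47 in controls at 24 hpf, 10.45 in controls at 48 hpf, 9.91 with MES at 24 hpf, 9.50 with TMAT at 24 hpf, 8.97 with TMAT at 48 hpf and 8.93 with MES particles at 48 hpf. Every pair of neighbours in this order overlapped in its arrays. Over all 18 arrays the intensity of pmaip1 ran from 339 to 2542, a 7.49-fold range, and was 4.30 to 18.4 times that of the random control probes of the same array. The feature was thus above the random probes in every array, with the least margin in MES array 2 at 48 hpf.

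For casp3b the exposed and control values lay closer together. At 48 hpf its intensity was 6510, 5958 and 5929 in MES arrays, 5521, 5705 and 4524 in TMAT arrays, and 8274, 11809 and 6387 in control arrays 1, 2 and 3. All TMAT arrays lay below the lowest control array, whereas MES array 1 lay just above it. With TMAT particles, given as a description, the log2 difference was −0.71 ± 0.39 SE (12.35 ± 0.18 against 13.06 ± 0.45, SD, n = 3 each). The values did not overlap, as in the 15.9% of features given above for this comparison, and 12.8% of features had a lower difference. The limma fit called 0.0% of features there (7519 at an unadjusted p under 0.05). The ordinary statistic also called 0. With MES particles, also a description, the log2 difference was −0.48 ± 0.39 SE (12.58 ± 0.08 in MES arrays), and 25.4% of features were lower. Without control array 2 at 48 hpf casp3b was at −0.48 with TMAT and −0.25 with MES particles, and without control arrays 1 and 2 at −0.29 and −0.06.

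At 24 hpf casp3b had an intensity of 8546, 6788 and 6618 in MES arrays, 6739, 6746 and 6997 in TMAT arrays, and 2383, 9735 and 8785 in control arrays 1, 2 and 3. Control array 1 was 3.88 times lower than the geometric mean of the other 2 control arrays. Such a deviation of that array or a lower one was found in 6.32% of features. The exposed arrays fell between control array 1 and the other control arrays. The log2 difference was 0.30 ± 0.39 SE for MES (12.83 ± 0.20 against 12.52 ± 1.13, SD, n = 3 each, adjusted p = 0.822) and 0.21 ± 0.39 SE for TMAT particles (12.74 ± 0.03 in TMAT arrays, adjusted p = 0.842, limma). Neither passed, and the sign of both rested on control array 1. Without it the differences were −0.35 (adjusted p = 1.0) and −0.44 (adjusted p = 0.997). The 3 TMAT arrays at 24 hpf lay close together for casp3b, where 0.849% of features had a smaller SD in that group, whereas for pmaip1 in the same arrays 90.7% had a smaller SD.

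Between the ages casp3b was at 13.06 ± 0.45 at 48 hpf and 12.52 ± 1.13 at 24 hpf in controls (log2 difference 0.54 ± 0.39 SE, with no test). That sign too turned without control array 1 at 24 hpf, to −0.11. With MES particles it was at 12.58 ± 0.08 at 48 hpf and 12.83 ± 0.20 at 24 hpf (−0.25 ± 0.39 SE, with no test). With TMAT particles it was at 12.35 ± 0.18 at 48 hpf and 12.74 ± 0.03 at 24 hpf, and this difference did not pass (−0.39 ± 0.39 SE, adjusted p = 0.604, limma). That SE pools the spread of all 6 groups, among them controls at 24 hpf with the SD of 1.13, so it exceeds what the TMAT arrays alone show. The difference also did not pass with any single array of the 18 left out (lowest adjusted p = 0.234, limma). Nor did it pass in any of 13 alternatives, a fit on the arrays of the comparison only among them. In the exposed groups the 48 hpf arrays lay below the 24 hpf arrays without overlap, as did 29.1% of all features with MES and 20.1% with TMAT particles. The limma fit called 26.8% of all features between the ages in controls, 26.0% with MES and 15.5% with TMAT particles. Of these comparisons casp3b was tested in that with TMAT particles.

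By mean log2 intensity casp3b was at 13.06 in controls at 48 hpf, 12.83 with MES at 24 hpf, 12.74 with TMAT at 24 hpf, 12.58 with MES at 48 hpf, 12.52 in controls at 24 hpf and 12.35 with TMAT particles at 48 hpf. TMAT at 24 hpf and MES at 48 hpf were the only neighbours in this order whose arrays did not overlap, and they differ in both particle and age. Over all arrays the intensity ran from 2383 to 11809, a 4.95-fold range, and was 24.0 to 104 times that of the random control probes.

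**Figure D2:**
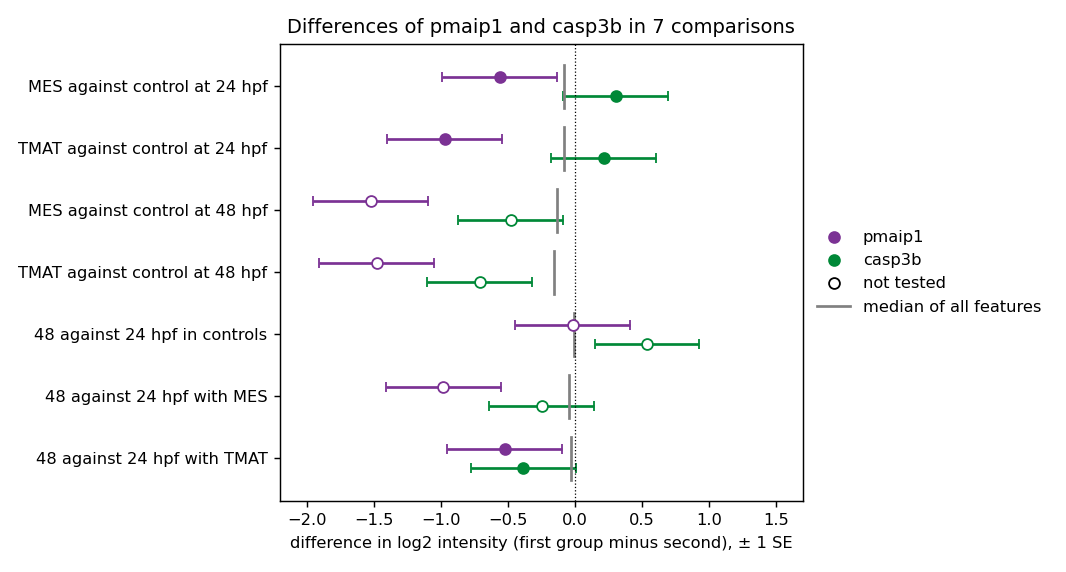
Difference in log2 intensity of pmaip1 (purple) and casp3b (green) in 7 comparisons, first group minus second, with ± 1 SE from the limma fit over 18 arrays. Open points were not tested, and the grey ticks mark the median over all 37105 features. The pmaip1 points for the particles at 48 hpf lie at −1.52 and −1.48, and the casp3b points lie between −0.71 and 0.54.

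At 48 hpf the control arrays with a high background were also those with high values of both genes. The control feature of random probes, read here as the background of an array, had an intensity of 80.1, 78.8 and 80.3 in MES arrays, 83.2, 79.6 and 96.4 in TMAT arrays, and 106, 169 and 82.8 in control arrays 1, 2 and 3 at 48 hpf. Among the 3 controls of that age, pmaip1, casp3b and the random probes had the same order, with array 2 highest and array 3 lowest. Control array 2 was 2.45 times higher for pmaip1 and 1.62 times higher for casp3b than the geometric mean of the other 2 controls. It held the highest of the 3 control values in 48.5% of all features. Control array 3, whose random probes were near those of the exposed arrays, had 780 for pmaip1 against 339 to 677 in the 6 exposed arrays. Its casp3b intensity of 6387 stood against 4524 to 6510.

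Divided by the random-probe intensity of its own array, pmaip1 at 48 hpf was at 6.26, 4.30 and 8.43 with MES, 5.01, 6.37 and 6.19 with TMAT particles, and 13.0, 15.1 and 9.43 in control arrays. These ratios did not overlap either. The share of all features without overlap on this scale was not counted, and the comparison with MES particles chose the gene. Nothing is read from this. With arrays so scaled, an alternative chosen after seeing the data, the log2 difference of pmaip1 was −1.01 ± 0.34 SE for MES and −1.08 ± 0.34 SE for TMAT particles, beside a median over all features of 0.38 and 0.25. For casp3b the same ratios were 81.3, 75.6 and 73.9 with MES, 66.3, 71.6 and 46.9 with TMAT particles, and 78.2, 70.1 and 77.2 in control arrays. These ratios overlapped with controls for both particles. The scaled difference of casp3b was 0.03 ± 0.38 SE for MES particles, in place of −0.48, and −0.31 ± 0.38 SE for TMAT particles, in place of −0.71. With log2 random-probe intensity as a covariate, also chosen after seeing the data, the difference of pmaip1 at 48 hpf was −0.66 ± 0.38 SE for MES and −0.80 ± 0.36 SE for TMAT particles. That of casp3b was −0.13 ± 0.47 SE and −0.44 ± 0.44 SE. The random-probe intensity of control array 3 (82.8) lay within the range of the TMAT arrays and above all 3 MES arrays.

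**Figure D3:**
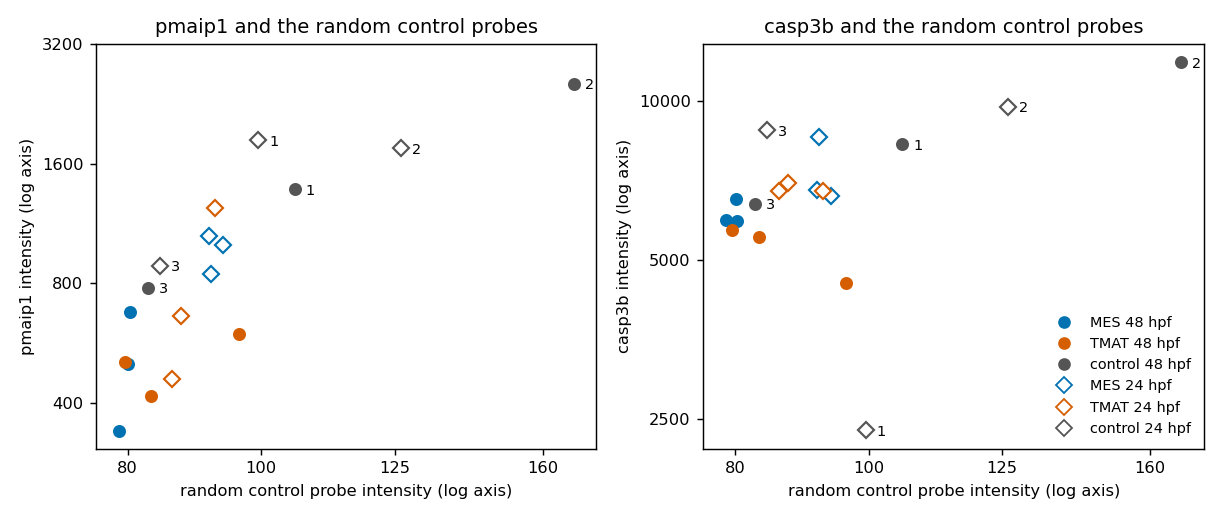
Intensity of pmaip1 (left) and casp3b (right) against the intensity of the random control probes of the same array, both on log axes, for 18 arrays; numbers mark the control arrays. Control array 2 at 48 hpf has the highest random-probe intensity (169) and the highest value of both genes. Control array 3 at 48 hpf lies close to the exposed arrays.

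At 48 hpf all exposed arrays lay below every control array, so leaving out a single array could not turn the sign of the pmaip1 difference. The size of that difference moved with the controls. For MES particles it was −1.09 without control array 2 and −1.94 without control array 3, and for TMAT particles −1.05 and −1.90. Without both control arrays 1 and 2 it was −0.68 ± 0.53 SE for MES and −0.64 ± 0.53 SE for TMAT particles, from the single remaining control array, which is assumed to vary like the other groups. In a combined table of the same values that the authors also deposited, 16 of 18 columns equal the table of another sample than their label names. With those labels the pmaip1 difference at 48 hpf was 0.02 for MES and −0.07 for TMAT particles. The same labels gave 0 features called between the ages in controls, MES and TMAT embryos, beside 9942, 9629 and 5733 with the per-array labels. The values above rest on the labels of the per-array tables.

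**Figure D4:**
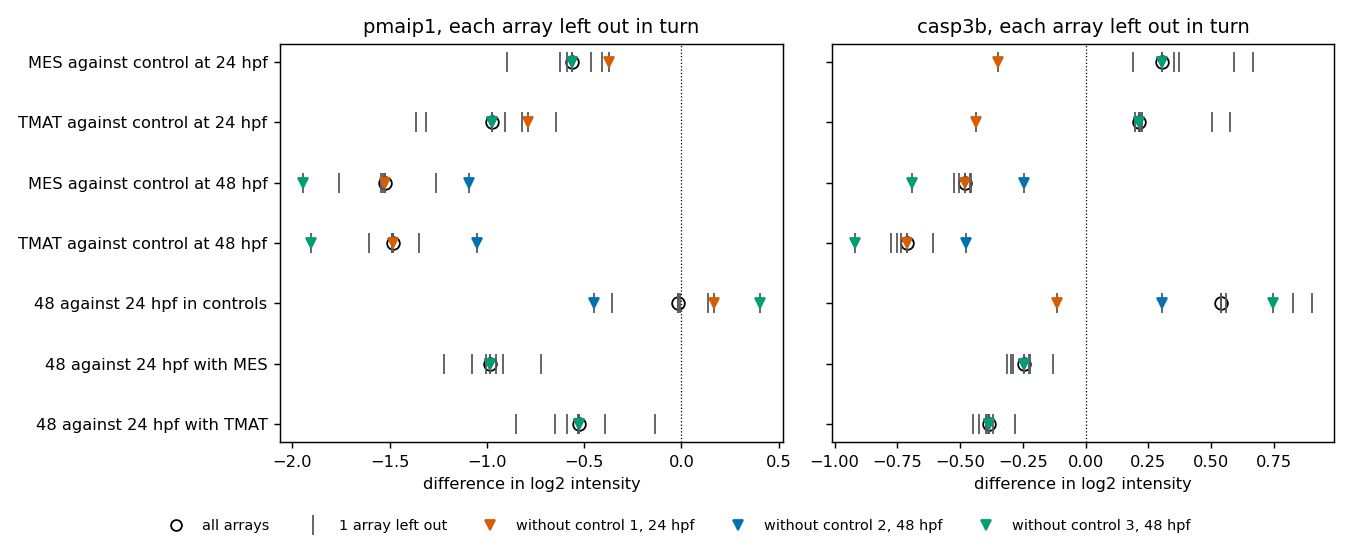
Difference in log2 intensity of pmaip1 (left) and casp3b (right) in 7 comparisons with all arrays (circles) and with each of the 18 arrays left out in turn (ticks), where triangles mark 3 control arrays. For pmaip1 at 48 hpf the values lie between −1.94 and −1.05. For casp3b at 24 hpf leaving out control array 1 turns the sign.

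Over the 18 arrays the Pearson correlation of pmaip1 and casp3b was 0.22, and −0.01 after each group mean was removed (18 arrays, a description). Control array 1 at 24 hpf had the highest pmaip1 of the 3 controls of that age and the lowest casp3b of all 18 arrays. The correlation of the 2 genes without that array was not computed, so no lack of relation is read from these values. The named features most like pmaip1 over the 18 arrays, among 2464 with an informative symbol, were sat1a.1, an acetyltransferase of polyamine breakdown (r = 0.95), tha1, a threonine aldolase (0.94), ube2f, a conjugating enzyme for NEDD8 (0.94), otud3, a deubiquitinase (0.93), and med8, a Mediator subunit (0.91). With group means removed these correlations with pmaip1 were 0.86 to 0.89. Most like casp3b were abi2a, an adaptor of the actin machinery (0.95), retreg2, of a family of endoplasmic reticulum receptors for autophagy (0.94), ube2j2, a ubiquitin-conjugating enzyme of the endoplasmic reticulum (0.93), tmem167b (0.92) and wbp11, a splicing factor (0.92). For casp3b these values leaned on control array 1 at 24 hpf, without which they were 0.80 to 0.93.

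The other genes of the pathway were described from 9 lists of 160 symbols, of which 148 are current and 21 were measured, pmaip1 and casp3b included. Of the 19 others none passed at 24 hpf with either particle. The median difference was −0.01 for MES and −0.16 for TMAT particles, beside −0.08 over all features in each. Among BH3-only genes bnip3la, a mitophagy receptor, was at 1.02 ± 0.56 SE with MES particles (adjusted p = 0.787, limma). It read 7948, 6354 and 4976 in MES arrays, and 810, 6444 and 5772 in control arrays 1, 2 and 3. That array was low for bnip3la as it was for casp3b. On the lower side sesn2, a stress-induced regulator of growth, was at −0.51 ± 0.25 SE with MES particles, and dap1b, of a family of death-associated proteins, at −0.51 ± 0.25 SE with TMAT particles (adjusted p = 0.787 and 0.654, limma).

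With MES particles at 48 hpf 2 of the 19 other genes fell, 0 rose and 17 did not pass, against 1.89% of all features called lower and 3.87% called higher. Both were already known as called from the earlier analysis when the lists were written. Neither their count nor their p-values are therefore independent evidence. They were phlda1, a pleckstrin homology-like gene linked to apoptosis in mammalian cells, and cidec, a relative of the DNA fragmentation factors that acts in lipid droplets. The intensity of phlda1 was 875, 403 and 585 in MES arrays and 1504, 2277 and 1000 in control arrays (−1.35 ± 0.37 SE, adjusted p = 0.0459, limma). That of cidec was 90.0, 98.9 and 107 in MES arrays and 223, 572 and 129 in control arrays (adjusted p = 0.0497, limma). In MES arrays cidec was only 1.12 to 1.34 times the random probes, so that its level there is not measured above background and no fold is given. With dim features left out, cidec among them, the count of falls was 1, beside 1.9% of the remaining features called lower. In both genes control array 2 was the highest, as for pmaip1. Control array 2 was the highest of the 3 controls at 48 hpf in 13 of the 19 genes, beside 48.5% of all features.

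Of the 19 genes 16 had a negative difference with MES particles at 48 hpf, with a median of −0.48 beside −0.14 over all features. That median was −0.18 beside −0.07 with the random-probe covariate, −0.08 beside −0.06 without control arrays 1 and 2, and 0.04 beside 0.38 with arrays scaled to the random probes. The share of all features with a negative difference was not counted for either particle. Nothing is therefore read from the counts of negative signs. Arrays did not overlap in 6 of the 19 on the lower side and in 0 on the higher side. Beside these stand the 20.2% and 10.3% of features given above. The count of 2 falls changed when arrays were left out, as did the calls over all features, and nothing is read from these counts. The count of falls was 0 without control array 1 and without control array 2, where 0 and 2 of all 37105 features were called lower. It was also 0 without any one MES array of either age. Of all features 0.0% were called lower without MES array 1 or 2 at 48 hpf, and 1.14% to 1.63% without each other MES array. The count was 4 without control array 3, where 9.09% of all features were called lower. It was again 0 with array medians centred, with the replicate block, by the ordinary statistic, with the covariate and with arrays scaled to the random probes. In these 1.28%, 1.03%, 0.0539%, 0.0% and 0.245% of all features were called lower. With array weights the count of falls was 11, with 1 rise, beside 32.5% of all features called lower and 7038 of 37105 called higher. With TMAT particles at 48 hpf 0 of 19 passed, 16 were negative, 7 lay below controls without overlap and 0 above (15.9% and 7.76% of all features), and the median was −0.37 beside −0.15. The median was 0.03 beside 0.25 with arrays scaled to the random probes. Array weights called 7 lower and 1 higher, beside 24.6% and 14.2% of all features. The lowest p belonged to birc7, an inhibitor of apoptosis, at −1.25 ± 0.32 SE (513, 786 and 731 in TMAT arrays, 1502, 2525 and 1042 in control arrays, adjusted p = 0.0698, limma). Without control array 3, 6 of the 19 were called lower with TMAT particles, beside 9.58% of all features.

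**Figure D5:**
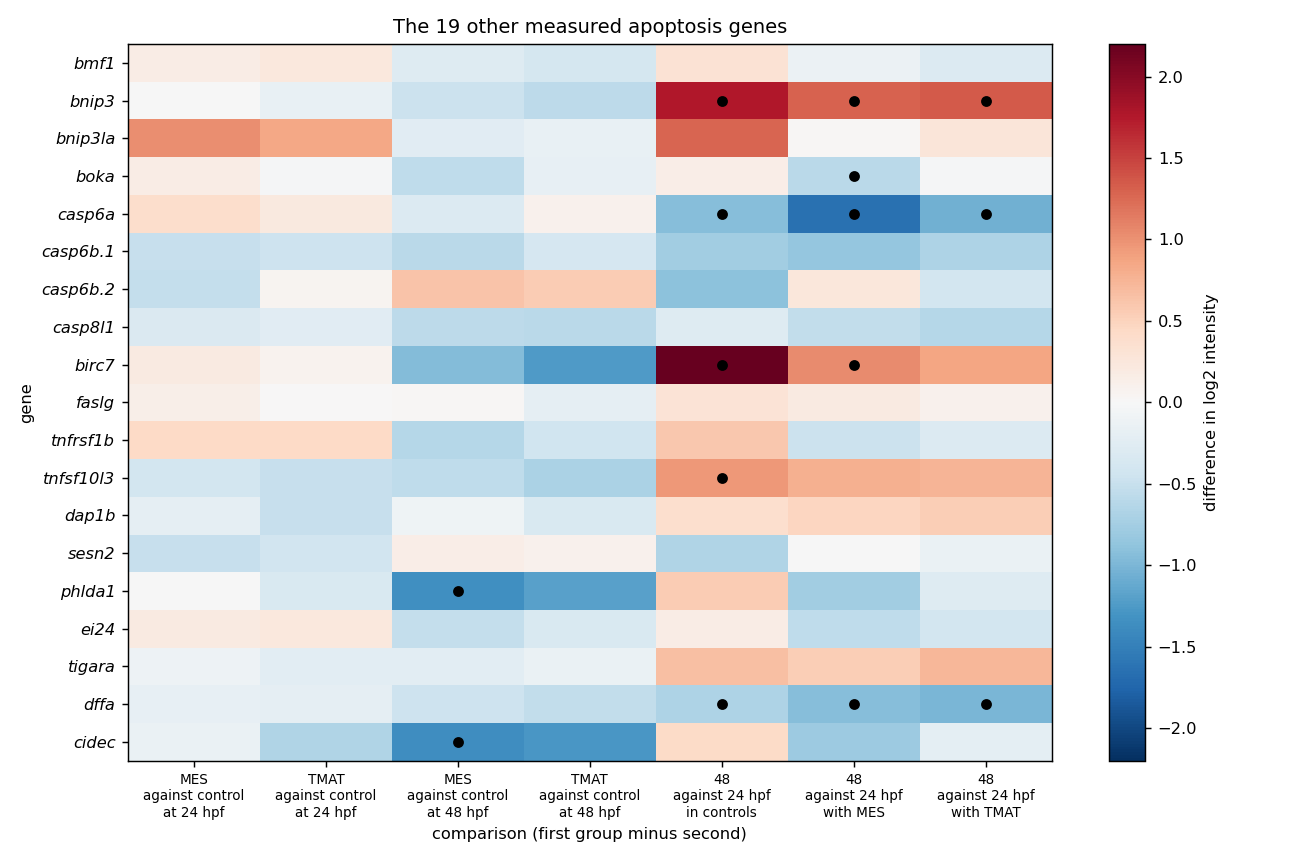
Difference in log2 intensity (colour, first group minus second) of the 19 other measured apoptosis genes in 7 comparisons. Black dots mark differences with an adjusted p under 0.05: 2 with MES particles at 48 hpf, 5, 5 and 3 between the ages in controls, MES and TMAT embryos, and 0 elsewhere.

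Between the ages several of these genes were called, in shares not far from those of all features, so nothing is read from the counts. The lists were written with earlier results of these data known. The p-values of list genes between the ages, in controls and in exposed embryos, are therefore not independent evidence. Both pmaip1 and casp3b were tested only with TMAT particles, where neither passed. In controls 3 of 19 rose by 48 hpf and 2 fell, beside 13.4% of all features called higher and 13.4% called lower. Those that rose were birc7 (2.19 ± 0.32 SE, adjusted p = 0.000127), bnip3, a BH3-only protein of mitochondria that is induced by low oxygen (1.76 ± 0.31 SE, adjusted p = 0.000651), and the TRAIL-like ligand gene tnfsf10l3 (0.95 ± 0.29 SE, adjusted p = 0.0261, limma). Those that fell were casp6a, another executioner caspase (−0.94 ± 0.31 SE, adjusted p = 0.0325), and dffa, the inhibitor of the nuclease that cuts DNA in apoptosis (−0.67 ± 0.24 SE, adjusted p = 0.0483, limma). With 48 hpf control array 2 left out the counts were 2 and 1, with array 3 left out 5 and 2, and with arrays 1 and 2 left out 1 and 0. The count of falls was 0 without control array 3 at 24 hpf, 1 without most other single arrays, and 4 without TMAT array 2 at 24 hpf. The shares of all features called lower there were 13.9%, 9.06% to 13.8%, and 14.5%.

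Changes of the same sign were called in exposed embryos for bnip3, casp6a and dffa. With MES particles 2 of 19 rose and 3 fell (13.4% and 12.6% of all features). These were bnip3 (1.29 ± 0.31 SE), birc7 (1.04 ± 0.32 SE), casp6a (−1.63 ± 0.31 SE), dffa (−0.94 ± 0.24 SE) and the pore-forming Bcl-2 relative boka (−0.59 ± 0.19 SE), at adjusted p of 0.00718, 0.0252, 0.00136, 0.00979 and 0.0315 (limma). With TMAT particles 1 rose and 2 fell (7.90% and 7.55% of all features), bnip3 (1.35 ± 0.31 SE), casp6a (−1.06 ± 0.31 SE) and dffa (−1.0 ± 0.24 SE), at adjusted p of 0.00666, 0.0260 and 0.00841 (limma). In MES arrays casp6a read 1191, 1015 and 1090 at 48 hpf, against 3580, 4244 and 2592 at 24 hpf, while casp3b in the same arrays differed by −0.25. With single arrays left out, the counts with MES particles were 1 to 4 rises and 1 to 4 falls, and with TMAT particles 1 to 4 rises and 1 to 2 falls. Of all features 7.01% to 16.7% were then called higher and 6.5% to 16.7% lower with MES particles. With TMAT particles these shares were 5.91% to 9.39% and 4.07% to 10.7%, and nothing is read from the counts.

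The arrays carried the ages of their labels. The summed intensity of the 4 measured lens markers was 76588 to 122721 in the 9 arrays at 48 hpf and 2470 to 7021 in the 9 arrays at 24 hpf, and that of the 2 measured muscle markers was 39146 to 60087 and 660 to 1770. Array medians were 1809 to 2197. At 48 hpf the summed neuronal markers (3 measured of 5) were 30492 to 37722 in controls. They were 19783 to 28939 with MES and 23835 to 27754 with TMAT particles. The lens markers overlapped with controls and reached higher, at 102428 to 122721 with MES and 100273 to 116697 with TMAT particles, against 76588 to 106113. The muscle markers lay within the control range, at 47252 to 53806 with MES and 47975 to 53215 with TMAT particles, against 39146 to 60087. The 1 measured red blood cell marker of 5 was 647 to 1032 with MES, 1000 to 1144 with TMAT particles and 1245 to 2535 in controls of that age. Neuronal and red blood cell values thus lay below controls without overlap for both particles. Of all single features 20.2% (MES) and 15.9% (TMAT) did so, and nothing is read from this. The 3 egg and ovary markers summed to 8358 to 15161 with MES, 4142 to 7033 with TMAT particles and 3784 to 5343 in controls. The 2 skin ionocyte markers summed to 2173 to 2774 with MES, 4820 to 6220 with TMAT particles and 2728 to 2977 in controls. Egg and ovary values with MES and ionocyte values with TMAT particles thus lay above controls without overlap. Of all single features 10.3% (MES) and 7.76% (TMAT) did so. The shares given are for single features, and those for sums of several features were not counted. The part of these in the pmaip1 difference was not tested.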

How the data were processed

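Each array was a one-colour NimbleGen expression array. For each array the authors deposited the intensity of every feature, on a linear scale, and the submitters' processing notes name RMA, a method that corrects background, normalizes by quantiles and summarises probes. No version is named. The log2 of the intensity was fitted with limma 3.58.1 in R 4.3.3, as 6 group means with 12 residual degrees of freedom, all 37105 features and p-values adjusted by the Benjamini-Hochberg method over all of them, with a threshold of 0.05. The single feature of 3342 random control probes was kept out of the fit. The fit was also run on simulated data with independent noise, of equal spread in all groups for each feature. In the arrays the median SD over all features at 48 hpf was 0.42 in controls, 0.21 with MES and 0.25 with TMAT particles. That run therefore does not show how the fit behaves with the wider spread of the controls. Symbols came through RefSeq accessions, credited to the assembly GRCz12tu, and no coordinates were used.

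The members, the gene lists and the comparisons were chosen with earlier results of these data known. Every measured list gene could be named, those called with values and otherwise those with the smallest p, and the 5 features most like each member were taken by Pearson correlation. Precision is limited by 3 arrays per group. TMAT and MES groups differ in dose and were not compared with each other. Replicate numbers are shared between groups. Of 45 pairs of arrays with the same number 13 had deviations from their group means correlated over 0.1. So had 41 of 90 pairs with different numbers, and the numbers were not taken as pairs. Alternatives covered normalization, background, moderation, array weights, the arrays used and the combined table.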

Additional observations from a re-analysis of the deposited data

Results flagged for a closer look

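For casp3b the exposed arrays lay on opposite sides of the control mean at the 2 ages. All 3 MES arrays were above it at 24 hpf and all 3 below it at 48 hpf, a change of the MES effect of −0.78 ± 0.55 SE on the log2 scale between the ages. This difference was not tested. The 3 TMAT arrays did the same, a change of −0.92 ± 0.55 SE, likewise not tested. Control array 1 at 24 hpf, at an intensity of 2383 against 9735 and 8785 in the other 2, sets the control mean in both. Without it the changes were −0.13 and −0.27. All exposed arrays at 24 hpf lay below the other 2 control arrays of that age, so the opposite sides rest on control array 1. The share of all features with this pattern was not counted, and nothing is read from it.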

How the results depend on the processing

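Of 13 alternatives, all kept the direction and the side of the threshold for pmaip1 with either particle at 24 hpf (−0.62 to −0.28 for MES, −1.11 to −0.63 for TMAT) and for both genes between the ages with TMAT particles. Between the ages with MES particles, where neither gene was tested, all kept the direction. With the combined table as labelled, the pmaip1 differences at 48 hpf were 0.0171 for MES and −0.0671 for TMAT particles, that between the ages in controls was −1.4231, the changes of the MES and TMAT effects were 0.4612 and 1.038, and casp3b at 48 hpf was at 0.0341 with MES and −0.1242 with TMAT particles; features called were 0 for MES at 48 hpf and 0 between the ages in controls, MES and TMAT embryos. Here the values are the same and the labels of 16 columns differ, so these shifts are shifts of labels and not of processing. Without 48 hpf control arrays 1 and 2, pmaip1 was at −0.6815 (MES) and −0.6376 (TMAT) at 48 hpf and −0.8602 between the ages in controls, its changes of effect were −0.1211 and 0.3347, and calls were 0 for MES at 48 hpf and 3028 between the ages in controls. With random-probe intensity as a covariate, pmaip1 was at −0.6556 (MES) and −0.80 (TMAT) at 48 hpf, its change of the MES effect was −0.3326, and calls for MES at 48 hpf were 0. With arrays scaled to the random probes casp3b with MES particles at 48 hpf was at 0.0342. With array weights pmaip1 between the ages in controls was at 0.2534. For casp3b array weights gave −0.1484 (MES) and −0.2765 (TMAT) at 24 hpf, −0.0228 between the ages in controls, −0.2326 for the change of the MES effect and −0.3369 for that of the TMAT effect. Calls with array weights were 19103 and 14393 for MES and TMAT particles at 48 hpf, and 21760 and 14634 between the ages with MES and TMAT particles. The cause of the shifts other than those with the combined table was not tested.

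For MES particles at 48 hpf, beside 2138 calls, there were 21 by the ordinary statistic and 0 with the arrays of the comparison only. The same fit on fewer arrays gave 2665 calls between the ages in controls and 15575 with MES particles. With random-probe intensity subtracted 1 feature was called for TMAT particles at 48 hpf. A fit with the replicate block gave 1385 calls for MES particles at 48 hpf, left pmaip1 at −1.52 there, and moved no member's call; array numbers were shared by pairs whose deviations had a median correlation of −0.08. Leaving out 1 array in turn gave −0.4487 to 0.4032 for pmaip1 between the ages in controls, which was also reversed at 0.1683 and 0.1342 without control arrays 1 and 2 at 24 hpf. For casp3b it gave −0.3476 to 0.6675 (MES) and −0.438 to 0.5771 (TMAT) at 24 hpf, −0.1139 to 0.9012 between the ages in controls and −1.1476 to −0.1325 for the change of the MES effect and −1.2875 to −0.2724 for that of the TMAT effect. Calls then ranged from 0 to 6260 for MES and 0 to 6310 for TMAT particles at 48 hpf, 5013 to 12398 between the ages with MES and 3708 to 7460 with TMAT particles. The 6260 and 6310 calls came without control array 3.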
